A study of Mus musculus with 114 samples.

Results

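The genes described here encode the proteins that fill, hold, dock and fuse synaptic vesicles. They were chosen by name, as 42 genes in 10 groups by role, from the synapsins on the vesicle surface to the scaffolds of the active zone. Of these, 41 were present among the 13101 genes of the count table and 1, Doc2b, was not analysed here. All 41 passed the filter on low counts. The lowest count of Sv2c in any library was 13 reads, that of Cplx3 was 36 and that of Syn3 was 130.

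A presynaptic terminal releases transmitter when calcium entry triggers the fusion of a vesicle with the plasma membrane. Fusion is driven by SNARE proteins on the vesicle (synaptobrevins, encoded by Vamp1 and Vamp2) and on the plasma membrane (Stx1a and Snap25). Synaptotagmins sense calcium, complexins hold and promote the assembled SNAREs, Munc13 proteins (Unc13a, Unc13b, Unc13c) prime vesicles for fusion, and the RIM proteins, bassoon and piccolo build the active zone where vesicles dock. Most of these proteins come as families of paralogues. Cell types differ in which paralogues they use, and parvalbumin interneurons are known for fast, tightly timed release onto their targets.

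The series is RNA sequencing of mouse prefrontal cortex with the RiboTag method, in which ribosomes carrying a haemagglutinin tag are pulled down with an antibody from the cells where the tag has been switched on, together with the RNA they hold. Each library is labelled with a sex and with one of 6 zeitgeber times, counted in hours from lights on and spaced evenly from ZT2 to ZT22. The title of every library names one cell type, PV or C, and its cell type label names the opposite one (pyramidal neurons for PV titles, parvalbumin interneurons for C titles). Libraries were therefore grouped by the title and are called PV-titled (55 libraries, 28 from females and 27 from males) and C-titled (58 libraries, 29 of each sex). At each time there were 8 to 10 libraries of a prefix. All mice are labelled Ribo-tag mice and no treatment is named. The sources used here give neither the Cre driver nor the age, and do not say whether each library came from a separate animal, so p values measure the spread between libraries, which may be in part technical.

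Levels are CPM, gene counts scaled to a common library total after TMM scaling of all libraries together. Total gene counts were 19.1 M to 39.5 M in PV-titled and 24.6 M to 44.1 M in C-titled libraries (M, 1e6 reads). The summed CPM of 6 parvalbumin cell markers ranged from 219.4 to 812 in PV-titled and from 66.9 to 142.7 in C-titled libraries. That of 6 GABAergic markers ranged from 632 to 2010 and from 41.9 to 268.7, so both sets followed the titles. Of 8 markers of other interneurons, 6 were also higher in PV-titled libraries and 2 in C-titled ones. Their summed level went the other way, with medians of 529 CPM in PV-titled and 1231 CPM in C-titled libraries. The PV-titled libraries were mixed: the summed level of 7 pyramidal markers had a median of 2071 CPM there against 5072 CPM in C-titled libraries. Markers of glia and vessels were higher in PV-titled libraries for 8 of 8 astrocyte, 6 of 6 oligodendrocyte, 8 of 8 microglial and 8 of 8 endothelial and mural genes, none of them at 0 in any library, with summed medians of 1430 against 528 CPM for 8 astrocyte genes and 207.99 against 64 CPM for 8 microglial genes. A set of 8 libraries stood apart by their low correlation with others of their prefix, 5 of them C-titled (at ZT2 and ZT6) and 3 PV-titled (at ZT10, ZT14 and ZT22).

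As a group, the vesicle and release genes had a lower summed level, in TMM-scaled CPM, in PV-titled libraries. Their summed level ranged from 10963 to 20499 CPM in PV-titled libraries, with a median of 16380, and from 22667 to 29685 CPM in C-titled libraries, with a median of 26568. In this scaling the groups did not overlap. The summed level of 18 pan-neuronal genes moved the same way, with medians of 8733 CPM in PV-titled and 13760 CPM in C-titled libraries. By edgeR's quasi-likelihood test, with time, sex and the range of library numbers held constant, 13 of the 41 members (31.7%) were higher in PV-titled libraries, where 44.3% of all 13053 genes tested were, and 27 (65.9%) were higher in C-titled libraries, where 43.2% of all genes were. Rims2 was not called. Within each of the 2 ranges of library numbers 40 members were called, against 79.6% of all genes in the first and 85.1% in the second. In the second range Rims2 was called and Rims3 was not. With all libraries and any direction counted, 40 members were called against 87.5% of all genes, so that being called says little about a member. The median log2 difference (PV-titled minus C-titled) was -0.81 over the members and 0.01 over all genes.

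These counts move with how libraries are put on one scale. Scaled to 18 pan-neuronal genes, themselves at a median log2 difference of -0.77, 17 members were higher in PV-titled libraries and 21 in C-titled ones. Of all genes tested, 75.6% and 12.7% were called in these directions, and the median of all genes moved to 0.67. With no scaling factor the counts were 14 and 25, against 53.4% and 33.1% of all genes, and the median of all genes was 0.21. The share of PV-titled-higher calls among all called genes was 50.7% in the reported scaling, 85.6% with pan-neuronal scaling and 61.7% with none. The levels of glial and vessel markers moved with the prefix, and so did the share of reads assigned to no gene (median 61.2% in PV-titled libraries and 52.8% in C-titled ones); their part in the members' differences was not tested. In pulled-down RNA of this kind, fewer cells of a type and less RNA per cell cannot be told apart.

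**Figure D1:**
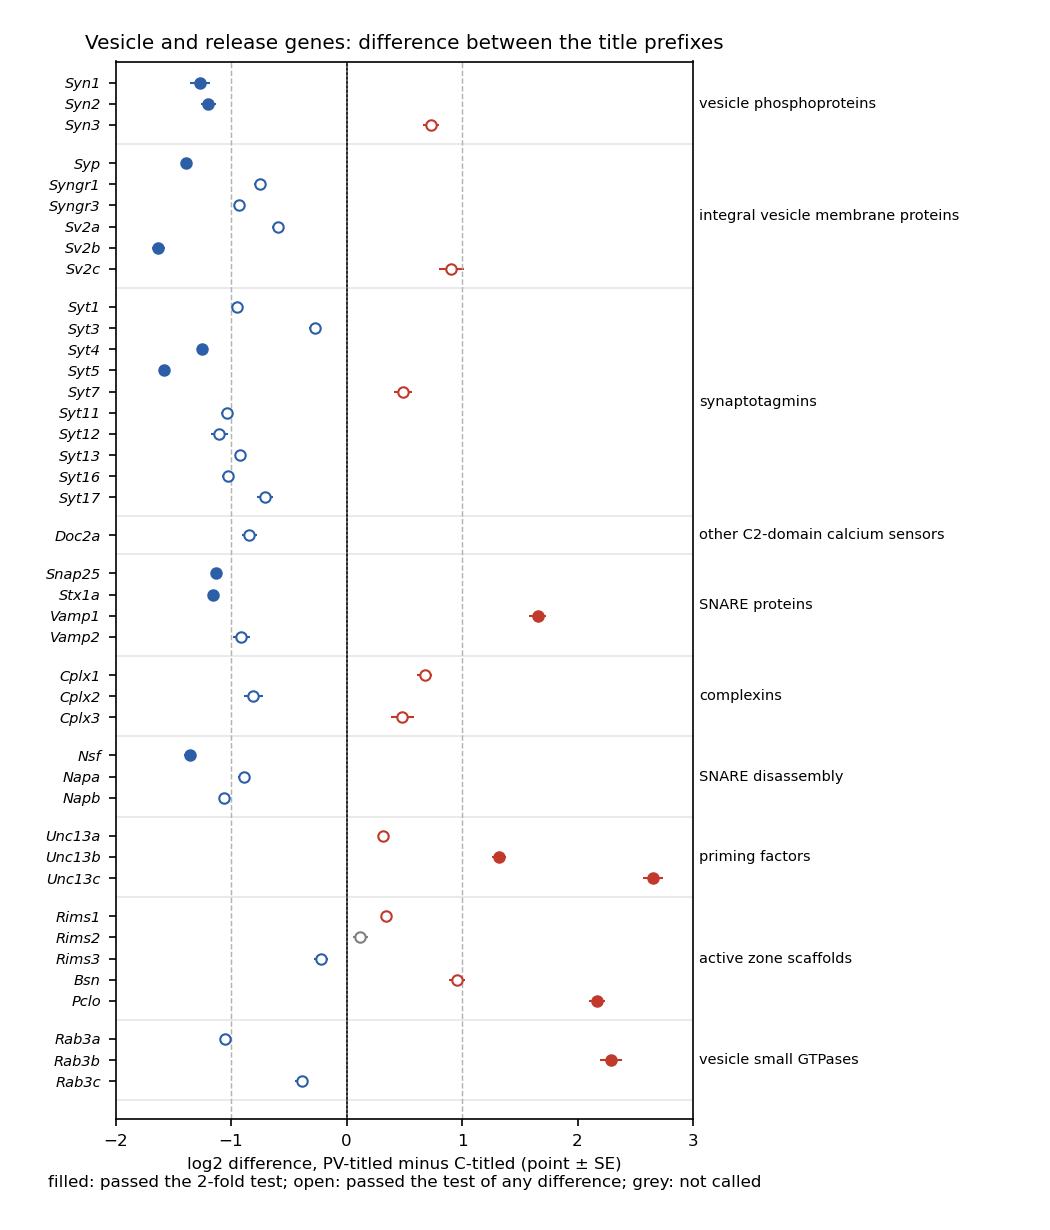
Log2 difference between PV-titled and C-titled libraries for the 41 members, grouped by role (point and SE from edgeR); red points are higher in PV-titled and blue points in C-titled libraries, the dotted line is the median of all genes and dashed lines mark a 2-fold difference. The priming factors all lie to the right of 0, the genes of SNARE disassembly all lie to the left, and most other families hold members on both sides.

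Because small differences pass the first test with so many libraries, members were also tested against a difference of 2-fold (glmTreat). By this test 9 members (22%) were higher in C-titled libraries, against 4.54% of all genes, and 5 members (12.2%) were higher in PV-titled libraries, against 18% of all genes. The ranges of the prefixes did not overlap for 8 members, Syp, Sv2b, Syt1, Syt4, Syt5, Napb, Pclo and Rab3a, against 4.5% of all genes. The 2-fold counts for C-titled libraries are those that depend most on the scaling, being 4 with no scaling factor and 0 with pan-neuronal scaling, where the PV-titled count was 10. The shares of all genes moved the same way, to 2% and 0.176% for C-titled libraries and to 33.2% for PV-titled libraries with pan-neuronal scaling.

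The synapsins coat the vesicle and tether it to its neighbours and to actin. Syn1 ranged from 129 to 970 CPM (median 606) in PV-titled libraries and from 268.7 to 1823 CPM (median 1504) in C-titled libraries, a log2 difference of -1.27 (SE 0.08, adjusted p for a 2-fold difference 7.9e-04). All 55 PV-titled libraries lay below the C-titled median, although the ranges overlapped through a low tail of C-titled libraries. Syn2 followed it, with 239.3 to 831 CPM (median 569) against 481 to 1633 CPM (median 1380), a log2 difference of -1.20 (SE 0.07, adjusted p for a 2-fold difference 0.00178). Syn3, the least abundant synapsin, went the other way. It ranged from 12.1 to 46.6 CPM (median 24.9) in PV-titled and from 5.95 to 23.3 CPM (median 15.7) in C-titled libraries, and 52 of 55 PV-titled libraries exceeded the C-titled median (log2 0.73, SE 0.07, adjusted p 1.23e-18). Of the exonic bases of Syn3, 14.1% also lie in exons of Timp3 on the opposite strand, a gene that was itself higher in PV-titled libraries (log2 2.30). Strand use in counting is not given, so reads of the shared bases cannot be assigned to one of them. In all, 5 members share over 10% of their exonic bases with another gene: Syn3, Doc2a, Syp (16.8%), Syt12 (17.2%) and Syt4 (14.5%).

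Of the 6 integral membrane proteins of the vesicle, 5 were higher in C-titled libraries. Syp, which encodes synaptophysin, ranged from 415 to 982 CPM (median 722) in PV-titled and from 1060 to 2205 CPM (median 1903) in C-titled libraries, without overlap (log2 -1.39, SE 0.04, adjusted p for a 2-fold difference 1.98e-17). The SV2 proteins, transporter-like glycoproteins of the vesicle, split. Sv2b had the largest C-titled difference of all members, with 143.5 to 489 CPM (median 280) against 578 to 1483 CPM (median 902) and no overlap (log2 -1.63, SE 0.06, adjusted p for a 2-fold difference 3.78e-21). Sv2a was higher in C-titled libraries by a log2 difference of -0.59, which turned to 0.06 and lost its call with pan-neuronal scaling. Sv2c was scarce, at 0.888 to 13.3 CPM (median 5.37) in PV-titled and 1.05 to 6.12 CPM (median 3.06) in C-titled libraries, and was higher in PV-titled libraries (log2 0.91, SE 0.11). The synaptogyrins Syngr1 and Syngr3 were higher in C-titled libraries, with log2 differences of -0.75 and -0.93.

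Among the synaptotagmins, 9 of 10 were higher in C-titled libraries and only Syt7 of the members was higher in PV-titled libraries. Syt1, the fast calcium sensor of most forebrain synapses, ranged from 600 to 1192 CPM (median 824) in PV-titled and from 1229 to 2016 CPM (median 1603) in C-titled libraries, without overlap. Its log2 difference of -0.94 (SE 0.04) did not pass the 2-fold test. Syt5 did, with 82.6 to 190 CPM (median 138) against 248.9 to 534 CPM (median 408) and no overlap (log2 -1.58, SE 0.04, adjusted p for a 2-fold difference 2.8e-27). Syt4, which lacks normal calcium binding in one of its C2 domains, ranged from 194.9 to 402 CPM (median 270) against 492.8 to 1071 CPM (median 644), again with no overlap (log2 -1.25, SE 0.04, adjusted p for a 2-fold difference 9.67e-10). Its close relative Syt11 had a log2 difference of -1.04.

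Syt7, a slow high-affinity sensor tied to asynchronous release and facilitation, ranged from 122 to 344 CPM (median 186.9) in PV-titled and from 86.6 to 438 CPM (median 124) in C-titled libraries (log2 0.49, SE 0.08, adjusted p 2.49e-08). Of the PV-titled libraries, 53 of 55 exceeded the C-titled median, yet 8 of 58 C-titled libraries exceeded the PV-titled median, and the highest C-titled value, 438 CPM, came from a library that stood apart. The remaining synaptotagmins, Syt3, Syt12, Syt13, Syt16 and Syt17, had log2 differences of -0.27, -1.10, -0.92, -1.03 and -0.71. The difference of Syt3 turned to 0.38 with pan-neuronal scaling and lost its call with no scaling factor, and that of Syt17 lost its call with pan-neuronal scaling. Doc2a, a soluble C2-domain calcium sensor, had a log2 difference of -0.84. Of its exonic bases, 39.4% are shared with Ino80e on the other strand, which had a log2 difference of -0.75.

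Of the SNARE genes, Snap25 was the most abundant member per length in both prefixes, with 327 ± 58.6 CPM per kb in PV-titled and 719 ± 111 CPM per kb in C-titled libraries (mean and SD, n = 55 and n = 58). Snap25 ranged from 1614 to 3471 CPM (median 2123) against 3165 to 7078 CPM (median 4786), so the ranges met at their edges only (log2 -1.13, SE 0.04, adjusted p for a 2-fold difference 5.46e-04). Stx1a ranged from 195.8 to 448 CPM (median 333) against 436 to 875 CPM (median 774), with a log2 difference of -1.16 (SE 0.04, adjusted p for a 2-fold difference 2.4e-05). The synaptobrevins moved apart. Vamp1, the form known from fast-spiking and hindbrain neurons, ranged from 28.4 to 155.8 CPM (median 86.6) in PV-titled and from 14.9 to 45.6 CPM (median 26.3) in C-titled libraries, and all 55 PV-titled libraries exceeded the C-titled median (log2 1.66, SE 0.07, adjusted p for a 2-fold difference 1.83e-15). Vamp2, the main forebrain form, had a median of 985 CPM in PV-titled libraries and 1850 CPM in C-titled ones (log2 -0.91, SE 0.07). Vamp2 remained the more abundant of the pair per length in both prefixes, at 249.5 ± 62.5 against 8.25 ± 2.21 CPM per kb in PV-titled libraries.

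**Figure D2:**
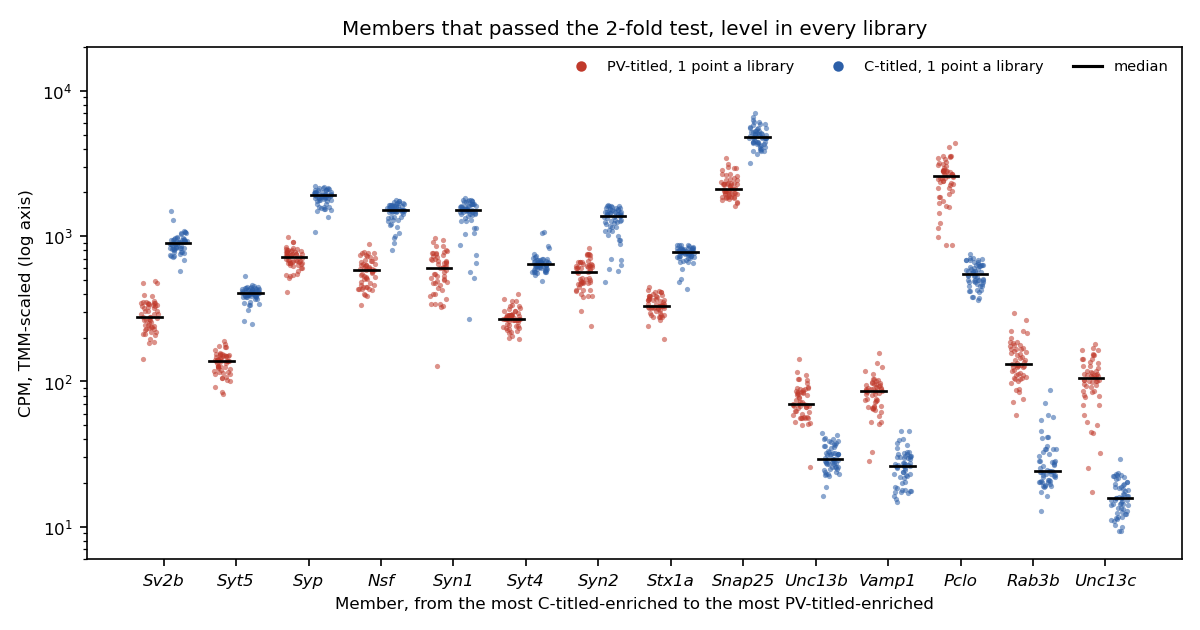
CPM on a log axis of the 14 members that passed the 2-fold test, 1 point a library, in PV-titled (red) and C-titled (blue) libraries with the median as a bar. Syp, Sv2b, Syt4, Syt5 and Pclo show no overlap, and low tails in C-titled libraries are seen for Syn1, Syn2 and Nsf.

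The complexins bind the assembled SNARE complex, and they too split by prefix. Cplx1, the form common in interneurons, ranged from 100.5 to 845 CPM (median 492.7) in PV-titled and from 195.6 to 461 CPM (median 303.3) in C-titled libraries, and 54 of 55 PV-titled libraries exceeded the C-titled median (log2 0.68, SE 0.06, adjusted p 2.74e-18). Cplx2, the form common in pyramidal cells, ranged from 49.7 to 176.5 CPM (median 87.1) against 76.9 to 606 CPM (median 138), with a log2 difference of -0.81 (SE 0.08), which lost its call with pan-neuronal scaling. The 606 CPM came from a ZT6 library that stood apart. Per length Cplx1 was the fourth most abundant member in PV-titled libraries, at 229 ± 57.1 CPM per kb. Cplx3, a membrane-anchored complexin known from retinal ribbon synapses and deep cortical cells, was rare in both, at 1.75 to 15.9 CPM (median 5.99) and 1.48 to 11.4 CPM (median 5.04), with heavy overlap (log2 0.48, SE 0.10, adjusted p 5.7e-06).

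After fusion, the ATPase NSF and its SNAP adaptors take the SNARE complex apart, and all 3 genes of this step were higher in C-titled libraries. Nsf ranged from 337 to 887 CPM (median 581) in PV-titled and from 808 to 1764 CPM (median 1512) in C-titled libraries (log2 -1.36, SE 0.05, adjusted p for a 2-fold difference 1.01e-10). Napb, the brain form of the adaptor, ranged from 269.5 to 626 CPM (median 440) against 745 to 1434 CPM (median 941), without overlap (log2 -1.06, SE 0.04). Napa, the widely expressed form, had a log2 difference of -0.88 (SE 0.05).

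The priming factors behaved in the opposite way, with all 3 Munc13 genes higher in PV-titled libraries. Unc13c had the largest difference of any member. It ranged from 17.4 to 181.5 CPM (median 106) in PV-titled and from 9.31 to 29.3 CPM (median 15.7) in C-titled libraries, and all 55 PV-titled libraries exceeded the C-titled median (log2 2.65, SE 0.09, 6.29-fold, adjusted p for a 2-fold difference 4.15e-36). Unc13c, at chr9:73479422-73968966 on the minus strand of GRCm38, encodes Munc13-3, best known from the cerebellum. Unc13b, which encodes Munc13-2, ranged from 26 to 143.8 CPM (median 70.3) against 16.2 to 44.1 CPM (median 29.1), a log2 difference of 1.32 (SE 0.06, adjusted p for a 2-fold difference 1.41e-07). Unc13a, which encodes Munc13-1, the main priming factor of the forebrain, differed least, at 189.4 to 364 CPM (median 288.3) against 171.7 to 298.9 CPM (median 222.7), a log2 difference of 0.31 (SE 0.04, adjusted p 4.38e-14). Per length Unc13a was still the most abundant of the 3 in PV-titled libraries, at 22.3 ± 3.27 CPM per kb beside 11.8 ± 4.18 for Unc13c and 3.29 ± 0.867 for Unc13b.

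Of the 5 scaffolds of the active zone, 3 were higher in PV-titled libraries. Pclo, which encodes piccolo and lies at chr5:14514918-14863459 on the plus strand of GRCm38, ranged from 868 to 4339 CPM (median 2575) in PV-titled and from 364 to 753 CPM (median 545) in C-titled libraries, without overlap (log2 2.17, SE 0.07, 4.49-fold, adjusted p for a 2-fold difference 2.62e-33). Bsn, which encodes bassoon, the partner of piccolo, ranged from 313.3 to 1470 CPM (median 776) against 209.1 to 753 CPM (median 385), and its log2 difference of 0.95 (SE 0.07) did not pass the 2-fold test. The RIM genes, whose proteins tie vesicles to calcium channels, differed little. Rims1 had a log2 difference of 0.34 (SE 0.04), Rims2 of 0.12 (SE 0.06, adjusted p 0.073) and Rims3 of -0.22 (SE 0.06), the last of which turned to 0.43 with pan-neuronal scaling.

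Rab3 proteins are the small GTPases of the vesicle that RIM binds, and their genes took opposite directions. Rab3a, the main brain form, ranged from 380 to 937 CPM (median 641) in PV-titled and from 993 to 1662 CPM (median 1346) in C-titled libraries, without overlap (log2 -1.05, SE 0.04). It was also the steadiest member over C-titled libraries, with a coefficient of variation of 8.91%. Rab3b, known from inhibitory terminals and the pituitary, ranged from 59.2 to 294.9 CPM (median 131) against 12.8 to 87.6 CPM (median 24.1), and all 55 PV-titled libraries exceeded the C-titled median (log2 2.29, SE 0.10, 4.9-fold, adjusted p for a 2-fold difference 1.09e-25). The highest C-titled value, 87.6 CPM, came from a ZT2 library that stood apart. Rab3c had a log2 difference of -0.39 (SE 0.06), which turned to 0.27 with pan-neuronal scaling.

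The members higher in PV-titled libraries were longer at the median, though Cplx1, Cplx3 and Rab3b among them are short. Their median exonic length was 9700 bases (2189 to 22746) and their median span 94.4 kb, against 4928 bases and 30.5 kb for those higher in C-titled libraries. The same order held over all genes, with 5286 bases for those higher in PV-titled and 3740 bases for those higher in C-titled libraries. Across members, log2 difference and exonic length had a Spearman rho of 0.38 (41 genes, which share libraries and depth), against 0.23 across all genes. The part of gene length in these differences was not tested.

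A ratio of 2 paralogues within one library does not depend on how libraries are scaled, so 19 pairs were compared in this way, by a two-sided permutation test of the difference in mean log2 ratio (100000 resamples, adjusted over the 19 pairs). Of these, 18 were called, and Syn1 against Syn2 was not (adjusted p 0.288). The pairs were chosen with earlier results of these data known, and since 87.5% of all genes differed between prefixes, a call alone says little about a pair. Within each library-number range 17 were called. Rab3b against Rab3a showed the largest shift. The log2 ratio ranged from -3.23 to -0.52 (median -2.34) in PV-titled and from -6.65 to -3.80 (median -5.77) in C-titled libraries, without overlap, a difference of 3.39 (10.5-fold, adjusted p 1.36e-05, from the smallest p the resamples can give, 1e-05). Vamp1 against Vamp2 was the other pair without overlap, with -4.54 to -1.53 (median -3.54) against -6.81 to -4.68 (median -6.13), a difference of 2.60.

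In other families the ranges of the prefixes overlapped, little for some pairs and broadly for others. The mean log2 ratio of Sv2c to Sv2b was -5.75 ± 0.83 (SD, n = 55) in PV-titled and -8.21 ± 0.48 (SD, n = 58) in C-titled libraries, that of Unc13c to Unc13a was -1.54 ± 0.62 and -3.83 ± 0.36, and that of Syn3 to Syn2 was -4.45 ± 0.54 and -6.37 ± 0.53. Syt7 to Syt1 shifted by 1.47 and Cplx1 to Cplx2 by 1.41, in favour of the first gene in PV-titled libraries. Pclo to Bsn shifted by 1.22, so the 2 scaffolds did not move by the same amount. The order of the genes in a pair was a choice made in listing the pairs, and the sign of a shift depends on it. Shifts toward the second gene included Syt5 to Syt1 by -0.63, Rims3 to Rims1 by -0.56 and Rims2 to Rims1 by -0.24. The ranges of the last were nearly the same, -2.39 to -0.33 in PV-titled and -2.73 to -0.47 in C-titled libraries.

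**Figure D3:**
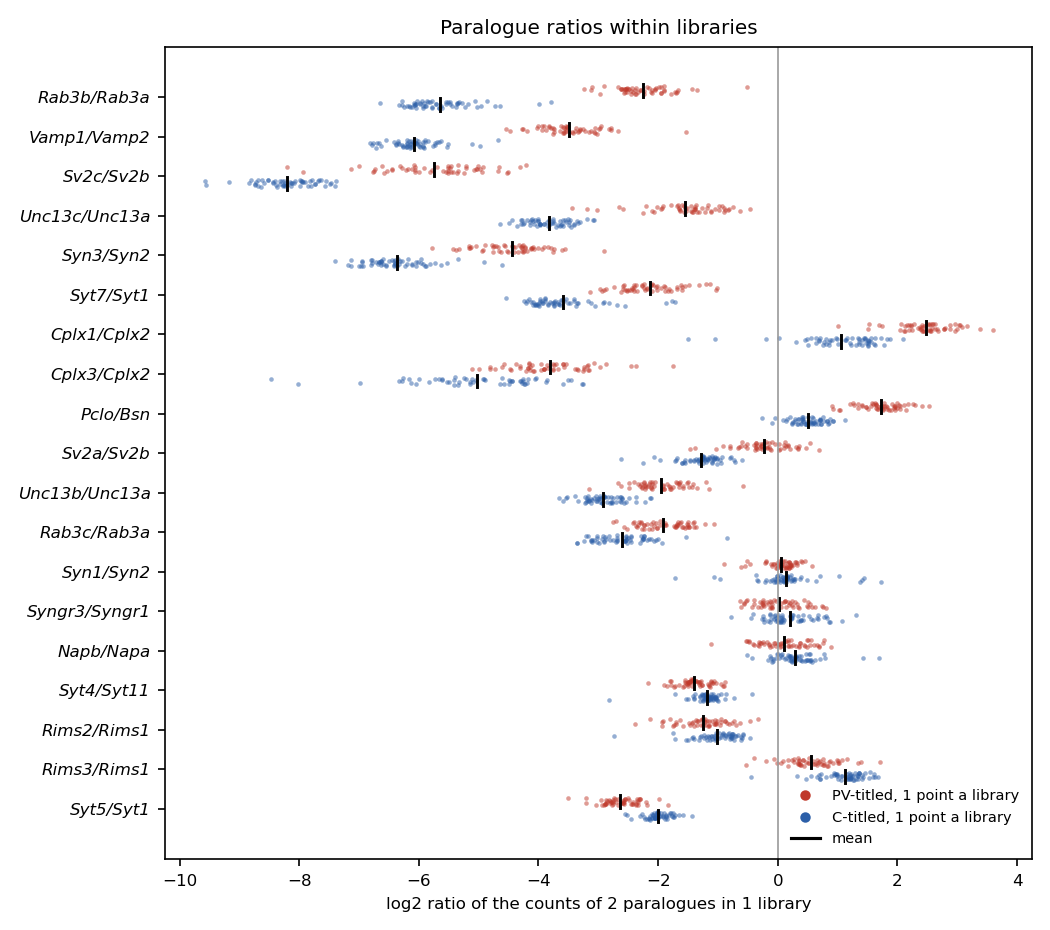
Log2 ratio of the counts of 2 paralogues in every library, for 19 pairs ordered by the difference between prefixes, with PV-titled libraries in red, C-titled libraries in blue and the mean as a bar. Rab3b/Rab3a and Vamp1/Vamp2 are fully separated, whereas the bars of Syn1/Syn2 nearly coincide.

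Other genes of the presynaptic terminal, 84 of 96 listed, divided much as the members did. Of the 84, 22 were higher in PV-titled libraries (44.3% of all genes) and 53 in C-titled libraries (43.2% of all genes). A further 9 were not called, and the median log2 difference was -0.60. All 13 genes of the vesicular proton pump, which fuels transmitter loading, were higher in C-titled libraries. In the 2-fold test 9 of them passed, against 4.54% of all genes, led by Atp6v0c (log2 -1.56), Atp6ap1 (-1.51), Atp6ap2 (-1.47) and Atp6v1e1 (-1.38). Of 17 genes of vesicle endocytosis, 13 were higher in C-titled and 3 in PV-titled libraries. These counts are from the reported scaling. With pan-neuronal scaling 0.176% of all genes passed the 2-fold test toward C-titled libraries. The largest PV-titled differences were those of Syt2 (log2 5.24), the fast sensor of parvalbumin terminals, and of Slc32a1 (4.62), the vesicular GABA transporter, followed by Snap23 (2.21), Stxbp2 (2.16) and Stx2 (2.08), which serve fusion in many non-neuronal cells. The Syt2 level was 18.8 ± 11.3 CPM in PV-titled and 0.503 ± 0.705 CPM in C-titled libraries (SD, n = 55 and n = 58).

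Over the day the time means of most members lay close together. From the lowest to the highest of the 6 time means, members differed by a median of 1.22-fold in PV-titled libraries and 1.15-fold in C-titled ones. A cosine and sine of a 24 h period were tested together within each prefix. In PV-titled libraries no member was called by edgeR, against 3.1% of all genes. With unadjusted p under 0.05 there were 9 members (17.2% of all genes), and DESeq2 called 2 (4.37% of all genes). In C-titled libraries 8 members (19.5%) were called, against 27% of all genes, and 12 had an unadjusted p under 0.05 (40.4% of all genes). Within the library-number ranges 3 (Cplx3, Syn3 and Syt17) and 2 (Cplx3 and Rims3) were called, against 2.9% and 10.2% of all genes. The median amplitude, the log2 distance from mean to peak, was 0.089 for members and 0.112 for all genes in PV-titled libraries, and 0.078 and 0.116 in C-titled libraries. An amplitude under 0.2 was fitted for 35 members in PV-titled libraries and 36 in C-titled ones.

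**Figure D4:**
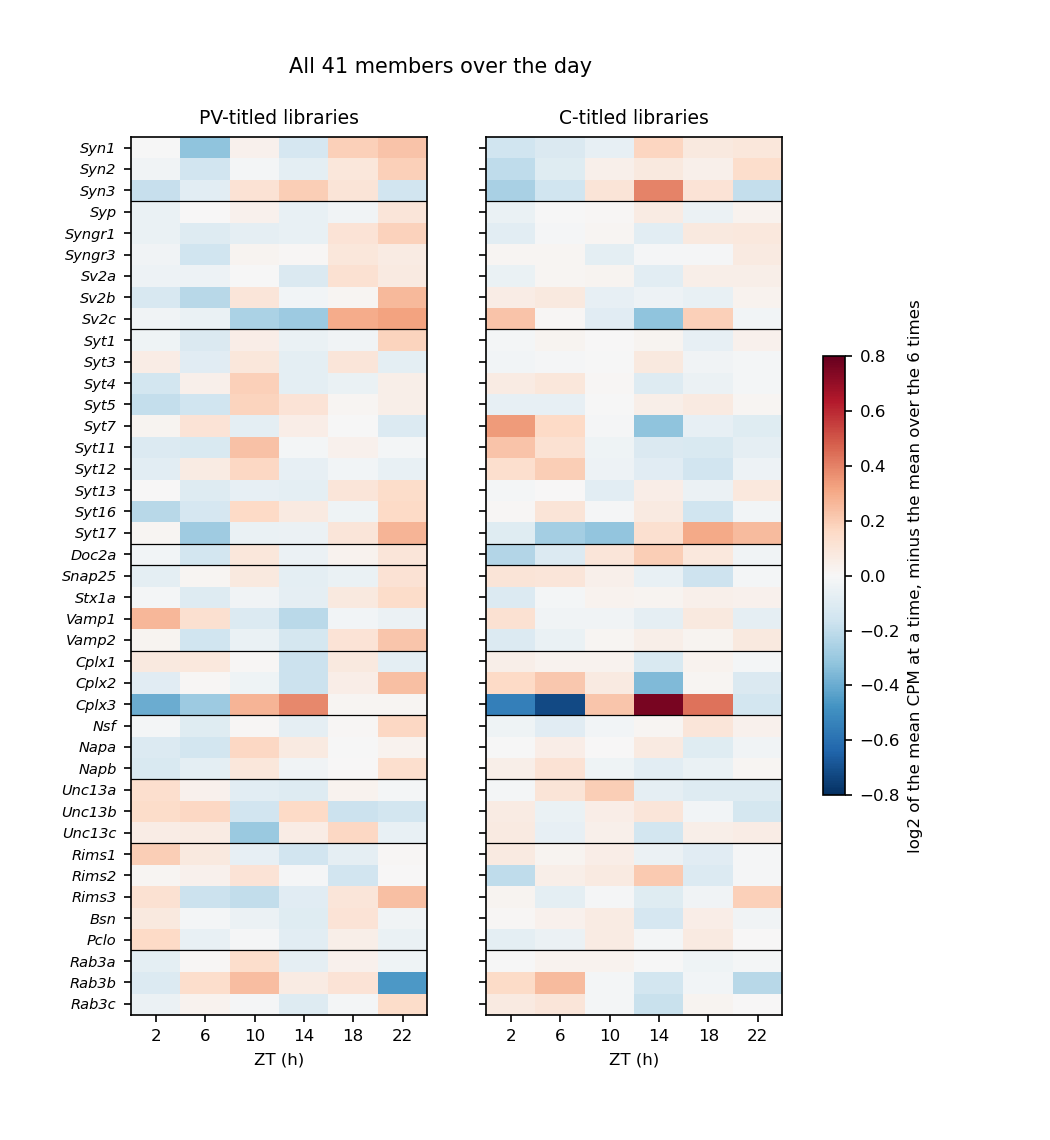
Log2 of the mean CPM at each time minus the mean over the 6 times, for all 41 members in the order of their roles (lines divide roles), in PV-titled and C-titled libraries. Most cells are pale, and Cplx3 in C-titled libraries, low at ZT2 and ZT6 and high at ZT14 and ZT18, is the strongest row.

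Cplx3 carried the clearest rhythm. In C-titled libraries it ranged from 1.48 to 5.6 CPM at ZT2 (mean 3.27 ± 1.38, n = 10), from 1.68 to 4.55 CPM at ZT6 (2.89 ± 0.782, n = 10), from 3.43 to 8.74 CPM at ZT10 (5.56 ± 1.7, n = 9), from 4.26 to 11.4 CPM at ZT14 (8.05 ± 2.17, n = 10), from 5.3 to 8.55 CPM at ZT18 (6.45 ± 0.996, n = 9) and from 2.82 to 5.94 CPM at ZT22 (4.31 ± 1.24, n = 10; means with SD). All ZT18 libraries lay above all ZT6 libraries, and the means rose 2.78-fold from ZT6 to ZT14. The amplitude was 0.74 (SE 0.08), with a fitted peak at ZT15.2 (edgeR, adjusted p 2.36e-09). It was called in every alternative run, in females alone (amplitude 0.73), in males alone (0.75), in the first library-number range (0.62) and in the second (0.89), and at an amplitude of 0.74 without the libraries that stood apart. For scale, the clock output gene Dbp had an amplitude of 0.76 and a peak at ZT15.0 in the same libraries.

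In PV-titled libraries the time means of Cplx3 also had their lowest value at ZT2 (5.05 ± 1.84 CPM, SD, n = 8) and their highest at ZT14 (8.69 ± 4.02 CPM, SD, n = 10), but the libraries overlapped at all times. The amplitude was 0.31 (SE 0.12) with a peak at ZT14.4, and it was not called (adjusted p 0.26). The difference in rhythm between prefixes did not pass either (adjusted p 0.194), so the rhythm of Cplx3 is not shown to differ between them. No member was called in that test by edgeR or DESeq2, against 0.559% of all genes by edgeR. With unadjusted p under 0.05 there were 4 members (13.5% of all genes), among them Unc13a (adjusted p 0.109) and Cplx3.

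The RefSeq window before the Cplx3 start holds a canonical E-box, the letters CACGTG that clock transcription factors and other bHLH proteins bind, at 2 positions, 85 to 80 and 55 to 50 bases before the start. The window before Cplx1, the related gene with an amplitude of 0.05 (adjusted p 0.73) in C-titled libraries, is shown beside it and holds none. Each is 250 bases from GRCm38.p6, 5′ to 3′ on the gene's strand, with E-boxes in capitals. The first is chr9:57606282-57606531 and the second chr5:108550028-108550277, both on the minus strand.
Cplx3: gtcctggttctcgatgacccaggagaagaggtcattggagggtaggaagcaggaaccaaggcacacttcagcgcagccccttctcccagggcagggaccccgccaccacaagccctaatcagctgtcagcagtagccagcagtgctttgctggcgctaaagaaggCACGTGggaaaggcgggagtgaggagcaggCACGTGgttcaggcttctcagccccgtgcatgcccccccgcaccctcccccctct
Cplx1: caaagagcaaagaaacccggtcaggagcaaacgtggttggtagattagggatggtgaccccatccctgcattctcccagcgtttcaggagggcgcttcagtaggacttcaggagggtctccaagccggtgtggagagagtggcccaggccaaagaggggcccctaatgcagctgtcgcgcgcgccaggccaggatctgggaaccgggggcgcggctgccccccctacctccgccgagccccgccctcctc

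RefSeq windows of 250 bases before to 50 bases after a start were found for 29 members, as 35 windows. Searched on both strands, CACGTG was present in 5 of them (14.3%), against 7.15% of all 32851 windows of the same length, and at 2 or more positions in those of Cplx3 and Napa, against 0.594% of all windows. The other windows with the letters belong to Unc13b, Sv2b and Nsf. None of the 4 other genes was called rhythmic in C-titled libraries, with amplitudes of 0.04 for Napa (adjusted p 0.834), 0.06 for Unc13b (0.467), 0.07 for Sv2b (0.362) and 0.09 for Nsf (0.252). The D-box letters TTATGTAA or TTACGTAA were in no member window and in 1.06% of all windows. The cyclic AMP response element TGACGTCA was in those of Napa and Syn1, and in 1.79% of all windows. A match of letters is a description and shows no binding.

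Of the other called members, Syt17, Syn3, Unc13a and Snap25 kept their call without the libraries that stood apart. In smaller sets the calls of Unc13a and Snap25 were lost, within each library-number range and within each sex. Snap25 was also not called with no scaling factor, with time as a factor or without replicate 1, 2, 3 or 4. Syn3 lost its call in the second range and in females, and Syt17 in the second range and in males. Syt17, an atypical synaptotagmin of the Golgi and early endosomes, had its lowest mean at ZT10 (69.7 ± 9.99 CPM, SD, n = 9) and its highest at ZT18 (107 ± 13.6 CPM, SD, n = 9) in C-titled libraries, and only the highest ZT10 value, 84 CPM, reached past the lowest ZT18 value, 83.5 CPM. Its amplitude was 0.34 (SE 0.07) with a peak at ZT19.1 (adjusted p 7.69e-04), and 0.30 without the libraries that stood apart. Syn3 rose from 12.8 ± 3.97 CPM at ZT2 (SD, n = 10) to 20.2 ± 2.4 CPM at ZT14 (SD, n = 10), with an amplitude of 0.31 (SE 0.06) peaking at ZT14.0 (adjusted p 7.82e-04). Timp3, which shares exonic bases with it, had an amplitude of 0.33 and a peak at ZT15.8 (adjusted p 0.0855), and its part in the Syn3 profile was not tested.

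Unc13a was highest at ZT10 (258.3 ± 17.9 CPM, SD, n = 9) and lowest at ZT18 and ZT22 (210 ± 21.2 and 210 ± 24.6 CPM), with an amplitude of 0.14 (SE 0.03) peaking at ZT8.0 (adjusted p 2.37e-03). Snap25 fell from 5227 ± 545 CPM at ZT2 (SD, n = 10) to 4345 ± 400 CPM at ZT18 (SD, n = 9), with an amplitude of 0.11 (SE 0.03) peaking at ZT4.8 (adjusted p 0.0331). The ranges of Snap25 at these times overlapped, from 4372 to 6063 CPM and from 3876 to 4882 CPM.

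The other 3 calls were lost without the libraries that stood apart. Syt11 had an amplitude of 0.16 with a peak at ZT3.9 (adjusted p 0.0324), which fell to 0.04 (adjusted p 0.155): a single ZT2 library held 4480 CPM, and the other 9 held 1362 to 1549 CPM. Syt7 had an amplitude of 0.25 with a peak at ZT3.1 (adjusted p 0.0403), which fell to 0.04 (adjusted p 0.817). Its highest values, 438 CPM at ZT6 and 373 CPM at ZT2, came from libraries that stood apart. Doc2a had an amplitude of 0.20 with a peak at ZT14.7 (adjusted p 0.0231), which fell to 0.16 (adjusted p 0.108). Without these libraries 6 members were called in C-titled libraries (22% of all genes), with Rims3 gained (amplitude 0.13, adjusted p 0.0468).

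**Figure D5:**
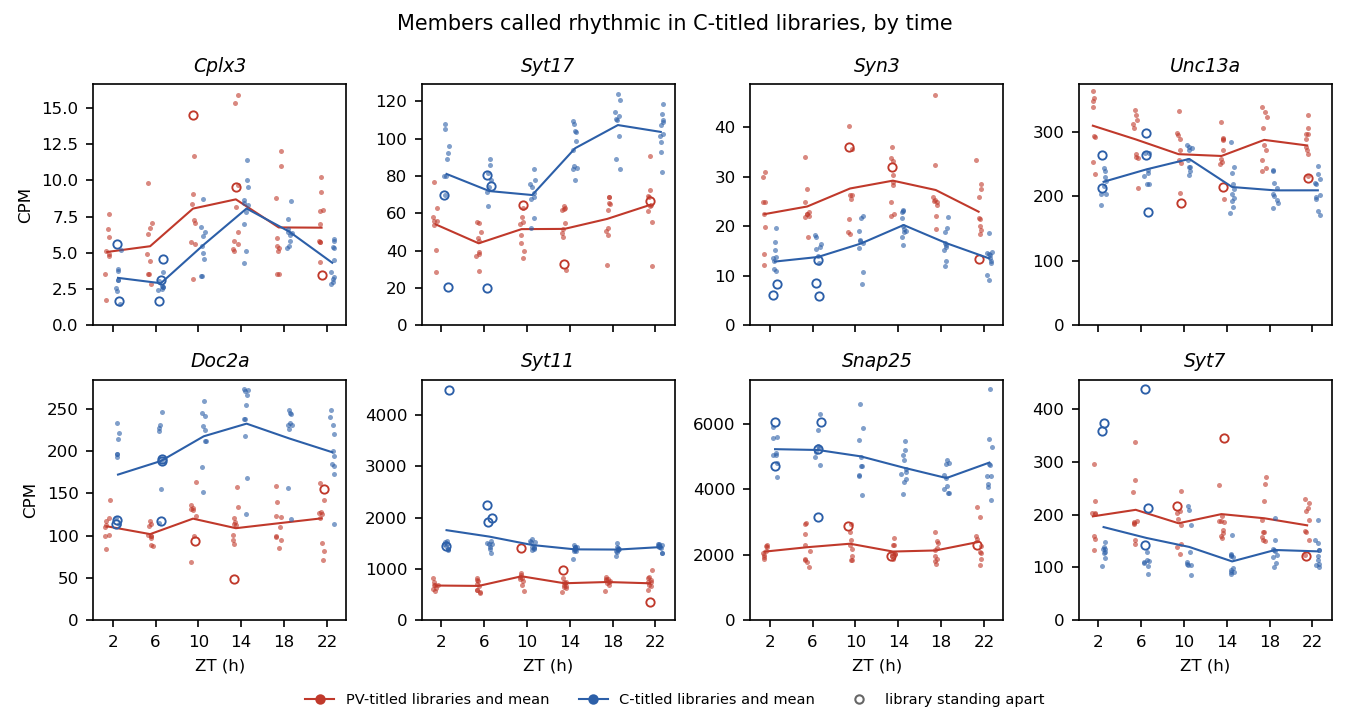
CPM of the 8 members called rhythmic in C-titled libraries against ZT in hours, 1 point a library, with lines through the time means and open circles for the libraries that stood apart (PV-titled red, C-titled blue). Cplx3 rises from ZT6 to ZT14 in C-titled libraries, and the high early means of Syt7 and Syt11 come with open circles.

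In PV-titled libraries Rims1 and Rims3 came nearest to a call. Rims3, which encodes a short RIM lacking the Rab3-binding part, was lowest at ZT10 (115 ± 28.5 CPM, SD, n = 9) and highest at ZT22 (156.8 ± 35.2 CPM, SD, n = 10), with an amplitude of 0.22 (SE 0.06) peaking at ZT21.6 (adjusted p 0.0532). Rims1 was highest at ZT2 (103 ± 11.5 CPM, SD, n = 8) and lowest at ZT14 (80.7 ± 10.8 CPM, SD, n = 10), with an amplitude of 0.15 (SE 0.04) peaking at ZT2.6 (adjusted p 0.0549). Both were called by DESeq2. By edgeR, Rims1 was called without the libraries that stood apart and with no scaling factor. Rims3 was called by edgeR with the set number of the titles as a block, with no library range term and without replicate 2.

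Of the 84 other presynaptic genes, 12 (14.3%) were called in C-titled libraries, against 27% of all genes, and 1 (1.19%) in PV-titled libraries, against 3.1%, and none in the test of a difference between prefixes. The 5 with the smallest p in C-titled libraries were Rab3d (amplitude 0.26, peak ZT16.5, adjusted p 3.00e-05), a Rab3 of secretory cells, Cltc (0.17, ZT5.8), the clathrin heavy chain, Vti1b (0.24, ZT6.0) and Vamp4 (0.15, ZT2.5), SNAREs of endosomal and Golgi traffic, and Picalm (0.36, ZT4.3), a clathrin adaptor. Sytl2, a Rab27 effector, was the gene called in PV-titled libraries (0.25, ZT7.6, adjusted p 0.0177).

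In the test of sex no member was called in PV-titled libraries, against 0.0307% of all genes, or in C-titled libraries, against 0.184%, by edgeR, and DESeq2 called 0 in both. With unadjusted p under 0.05 there was 1 member in PV-titled (2.77% of all genes) and 5 in C-titled libraries (7.61%), the smallest p belonging to Unc13b in C-titled libraries (log2 male minus female -0.17, adjusted p 0.337).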

How the data were processed

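The authors deposited counts of reads per gene in 1 table, made per the submitters' processing notes with FastQC, HTSeq and DESeq2 on GRCm38. For versions, aligner, annotation and strand use nothing is stated in the sources used here. Of 114 columns 113 were used. The other 1 names a sex at odds with its nearest title. Of 13101 genes, 13051 matched a GENCODE vM21 symbol; reads assigned to no gene (51.9% to 67.7% of a library's reads counted) were left out. edgeR 4.0.16 (R 4.3.3) was run with TMM, filterByExpr and quasi-likelihood F tests, and glmTreat for 2-fold differences. Benjamini-Hochberg adjustment ran over all genes of a test, with a threshold of 0.05. Sex and library-number range (separate ranges in the titles) were terms of the fits. DESeq2 1.42.0 was an alternative. Ratios used counts plus 0.5. Promoter windows came from RefSeq (GRCm38.p6), and lengths are unions of exons. Libraries stood apart when their median correlation with their prefix lay over 6 median absolute deviations below the median, a rule chosen after seeing the data. All members are accounted for: those past the 2-fold test in full, called rhythmic members by name (up to 12 a prefix), and of other presynaptic genes the 5 largest called differences each way and the 5 rhythms of smallest p, except 1 gene that is not reported here. Members, lists and pairs were chosen with earlier results of these data known. The scripts were tested on simulated counts.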

Additional observations from a re-analysis of the deposited data

Results flagged for a closer look

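Within groups of one prefix and time, the highest or lowest library was compared with the rest by Dixon's ratio, for the members' summed level and each member called rhythmic. Of 108 groups, 11 held a library far from the others. The groups share libraries, and the members were taken for rhythm calls made in the same libraries. The count therefore cannot be set against a chance rate. In 8 of the 11 it was a library that stood apart in the whole profile.

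The summed level of the members was low in 1 C-titled library at ZT2, at 23032 CPM against 26269 to 27628 CPM in the others. The same library had the lowest Syt17 at ZT2, 20.5 CPM against 69.8 to 108 CPM. A C-titled female library at ZT6 (replicate 5) held the lowest Syt17, 19.99 CPM against 64.0 to 89.2 CPM, the lowest Snap25, 3165 CPM against 4732 to 6314 CPM, and the highest Syt7, 438 CPM against 88.4 to 213.3 CPM. Syt11 reached 4480 CPM in 1 C-titled library at ZT2, against 1362 to 1549 CPM, and 1405 CPM in 1 PV-titled library at ZT10, against 572 to 927 CPM. Syt7 reached 344 CPM in 1 PV-titled library at ZT14, against 156.5 to 255.6 CPM. These libraries all stood apart.

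In libraries that did not stand apart, Syn3 reached 46.6 CPM in 1 PV-titled library at ZT18, against 19.4 to 32.3 CPM. Syt7 was 160.7 CPM in 1 C-titled library at ZT14, against 86.8 to 125 CPM, and Syt11 was 1189 CPM in another of that time, against 1350 to 1461 CPM.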

How the results depend on the processing

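The count of 40 members that differed between prefixes was 38 to 41 over all alternatives, in which 79.6% to 88.7% of all genes differed. The 18 called paralogue pairs were 17 or 18. Of the 2-fold calls, 5 in PV-titled libraries became 10 with pan-neuronal scaling, where the share of all genes rose from 18% to 33.2%. The 9 in C-titled libraries became 4 with no scaling factor and 0 with pan-neuronal scaling. The share of all genes fell there from 4.54% to 2% and 0.176%. Pan-neuronal scaling also reversed Rab3c (0.27), Rims3 (0.43) and Syt3 (0.38), while Sv2a changed sign (0.064) and lost its call. The 0 rhythmic members in PV-titled libraries became 1 with no scaling factor, 2 with DESeq2, 1 with no library range term, 1 without the libraries that stood apart (an alternative chosen after seeing the data), and 0 to 1 when a replicate was left out. The 3.1% of all genes called there became 2.53%, 4.37%, 3.52%, 4.06% and 1.19% to 3.1% in the same order. The 8 rhythmic members in C-titled libraries became 5 with no scaling factor, 3 and 2 in the first and second library-number range alone, 2 in females, 2 in males, 4 with time as a factor, and 4 to 8 when a replicate was left out. The share of all genes called fell as well, from 27% to 21.9%, 2.9%, 10.2%, 2.07%, 3.63%, 10% and 13.8% to 26.3% in the same order. The cause of these falls was not tested. The range, sex and replicate subsets hold fewer libraries, whereas no scaling factor and time as a factor used all C-titled libraries. In no alternative did a member pass the test of sex or of a rhythm difference between prefixes. Over all genes, the 73 called for a rhythm difference were 37 with no scaling factor and 20 with the replicate block. They were 18 without the libraries that stood apart, and over 2 times the 73 with DESeq2 and with no library range term. Only 0 and 2 genes were called in the first and second range alone, 4 in females, 1 in males and 3 without replicate 3. With so few calls, the absence of members in these runs says little. The alternatives of the sex test called 2 to 5 of all genes in PV-titled libraries, where the same limit holds, and at least 4 in C-titled ones.

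Same-numbered libraries had a median correlation of deviations of 0.225 within C-titled, 0.090 within PV-titled and 0.084 between prefixes, against -0.055, -0.024 and -0.017 for other numbers. Of same-numbered pairs, 68.8%, 46.7% and 45.7% exceeded 0.1 in the same order. Libraries with the same number thus resembled each other more than others did. The set number in the titles has no stated meaning and was not a term of the reported fits. Those fits take same-numbered libraries as independent, which these values do not show. With the set number as a replicate block, 1 member (Rims3) was rhythmic in PV-titled libraries, against 3.33% of all genes. In C-titled libraries 6 were rhythmic (Syt7 and Syt11 lost), against 25.4% of all genes. In that run 40 members differed between prefixes, against 87.6% of all genes. Low counts limit Sv2c and Cplx3 most, and the number of libraries at a time, 8 to 10, limits small amplitudes.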
